A study of Rattus norvegicus with 9 samples.

Results

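The genes described here serve MHC class II and antigen presentation, and they were examined in 9 fetal rat lungs. The 10 members were fixed by symbol: Cd74, RT1-Ba, RT1-Bb, RT1-Da, RT1-Db1, RT1-DMa, RT1-DMb, Ciita, B2m and Tapbp. They were matched to the deposited table through their NCBI Gene IDs. All 10 were found among the 17465 genes of the table, and all 10 passed the filter on low counts, among 12966 genes tested. The lungs were from Sprague-Dawley rat fetuses and formed 3 groups of 3 libraries. Control lungs and hypoplastic lungs carried no treatment. The treated lungs were hypoplastic lungs given AFSC-EVs, vesicles released by stem cells from amniotic fluid. By the title of the series, the hypoplasia (underdevelopment of the lung) followed oligohydramnios, a lack of amniotic fluid. The sources used here do not state fetal age, litter, vesicle dose or route. Total RNA of whole powdered lung was sequenced after removal of ribosomal RNA, so every cell type of the lung contributed to each value.

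MHC class II molecules are pairs of an alpha and a beta chain that show peptides from the endosome to CD4+ T cells. In the rat the presenting chains are encoded in the RT1 complex, as RT1-B (RT1-Ba alpha, RT1-Bb beta) and RT1-D (RT1-Da alpha, RT1-Db1 beta). The invariant chain, encoded by Cd74, guides new class II molecules to the endosome and fills their groove, and the RT1-DM heterodimer (RT1-DMa and RT1-DMb) exchanges its remnant for peptide. The coactivator encoded by Ciita switches this gene set on through promoter-bound factors. Class I molecules, which show peptides from the cytosol to CD8+ T cells, need the light chain encoded by B2m and the loading factor tapasin, encoded by Tapbp. Class II expression is known mainly from dendritic cells, B cells, macrophages and, in lung, alveolar type II cells, while nearly all nucleated cells express class I. Interferon gamma induces both sets, and type I interferon induces class I genes.

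The promoters are shown first, and their part in the expression values below was not tested. Promoter sequences of RefSeq (assembly GRCr8, from 250 bases before to 50 bases after each gene's start) were matched for 8 of the 10 members. RT1-DMb and Ciita had no entry. Class II promoters are known for an X box, bound by the RFX complex, followed by a Y box, bound by NF-Y. ATTGG, the NF-Y core, and AACNGATG, a core of the X box, were searched on both strands, with N for any base. The core of the interferon-stimulated response element (GAAA, any 2 bases, GAAA; ISRE below) was searched likewise. Capitals mark these matches in the stretch from 150 to 11 bases before the start, written 5′ to 3′ along the gene.
RT1-Da, chr20:4515265-4515404, plus strand: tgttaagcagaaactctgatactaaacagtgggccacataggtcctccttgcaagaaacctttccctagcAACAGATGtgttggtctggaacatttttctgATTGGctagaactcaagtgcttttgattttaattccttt
RT1-Db1, chr20:4560173-4560312, minus strand: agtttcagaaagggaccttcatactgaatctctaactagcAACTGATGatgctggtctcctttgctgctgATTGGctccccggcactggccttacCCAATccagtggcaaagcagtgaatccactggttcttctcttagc
RT1-Ba, chr20:4576907-4577046, plus strand: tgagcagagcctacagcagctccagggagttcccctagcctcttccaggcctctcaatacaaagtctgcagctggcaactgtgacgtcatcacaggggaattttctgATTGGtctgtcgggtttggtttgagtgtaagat
RT1-Bb, chr20:4604129-4604268, minus strand: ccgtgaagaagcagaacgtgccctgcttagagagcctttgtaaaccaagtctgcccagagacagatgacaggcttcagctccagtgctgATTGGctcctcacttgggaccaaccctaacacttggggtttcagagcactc
RT1-DMa, chr20:4712346-4712485, minus strand: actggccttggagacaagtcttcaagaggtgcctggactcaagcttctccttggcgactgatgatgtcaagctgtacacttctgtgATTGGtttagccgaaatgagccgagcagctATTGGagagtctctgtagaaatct
B2m, chr3:129549180-129549319, plus strand: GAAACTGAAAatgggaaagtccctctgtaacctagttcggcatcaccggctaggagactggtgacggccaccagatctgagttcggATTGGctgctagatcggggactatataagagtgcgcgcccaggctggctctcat
Tapbp, chr20:4967888-4968027, minus strand: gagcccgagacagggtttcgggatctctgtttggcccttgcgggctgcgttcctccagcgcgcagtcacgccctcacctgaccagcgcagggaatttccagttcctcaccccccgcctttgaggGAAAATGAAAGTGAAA

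RT1-Da and RT1-Db1 held AACNGATG followed by ATTGG on the gene's strand, with 23 and 22 bases between them. That order with 10 to 30 bases between occurred in 0.0388% of 33469 rat promoters of the same length (13 promoters, these included), and the spacing range was set with this known arrangement in view. AACNGATG alone was in 2.58% of promoters, ATTGG in 37.5% and the ISRE core in 3.92%. TGATTGG, a longer form that contains ATTGG, was in 7.06% of promoters and in 5 of the 8 members: RT1-Ba, RT1-Bb, RT1-Da, RT1-Db1 and RT1-DMa. B2m had ATTGG and the ISRE core, and Tapbp had overlapping ISRE cores 26 to 11 bases before the start. Cd74 had ATTGG only on the opposite strand, 189 to 185 bases before its start. TTCNNNGAA (a gamma-activated site, in 8.87% of promoters) and CACGTG (an E box, in 6.42%) were in none of the 8. These are matches of letters, and factor binding was not measured. Only exact matches counted, so promoters without AACNGATG are not shown to lack an X box. Upstream of ATTGG, RT1-DMa has gactgatg and RT1-Bb has gacagatg, which differ from AACNGATG in the first base only. Such variants were not searched, and the share of promoters that hold them is not known.

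The libraries held 56922779 to 88243188 estimated counts, with 13836 to 14089 genes above 0. Levels are given as CPM, counts per 1000000 of the library size after TMM scaling. Transcript lengths were not used, so the CPM of 1 gene is compared between lungs. Sums, ratios and shares over several genes are in counts and do not give relative numbers of transcripts. On a principal component analysis, control library 2 and hypoplastic library 2 lay at the ends of the first component (-54.9 and 62.2), which held 33.4% of the variance. By Xist and Y-linked genes the lungs were 2 males and 1 female in the control group and 1 male and 2 females in each other group. Lung identity genes were present throughout, with Sftpc, a surfactant protein gene, at 291.8 CPM or more in every library. Of the alveolar type II markers listed, 7 of 7 were lower in hypoplastic than in control lungs. By edgeR 5 of them had an unadjusted p under 0.05, where 5.69% of all genes were lower at that p. Of these 7, 0 passed the adjusted threshold of edgeR and 3 that of DESeq2, against 0.00771% and 1.56% of all genes.

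Cd74, the invariant chain gene, was at 31.1, 17.3 and 43.3 CPM in control libraries 1 to 3. The hypoplastic lungs had 38.1, 38.5 and 32.5 CPM, and the treated lungs 43.8, 43.0 and 71.6 CPM. Control library 2 was the lowest of the 9 and treated library 3 the highest. Treated and hypoplastic values did not overlap, but the gap between 43.0 and 38.5 CPM was small beside the range within the treated group. Means were 30.6 CPM ± 13.0 (SD, n = 3), 36.4 CPM ± 3.35 (SD, n = 3) and 52.8 CPM ± 16.3 (SD, n = 3) for control, hypoplastic and treated lungs.

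RT1-Ba, the alpha chain of RT1-B, was at 8.26, 5.76 and 14.8 CPM in control, 13.7, 7.82 and 6.86 CPM in hypoplastic and 12.8, 14.4 and 17.8 CPM in treated lungs. Its partner RT1-Bb was at 3.17, 2.07 and 5.78 CPM in control, 3.89, 2.37 and 2.19 CPM in hypoplastic and 4.25, 4.22 and 8.13 CPM in treated lungs. For both chains control library 3 and treated library 3 were the highest, and control library 2 was the lowest of all. RT1-Da, the alpha chain of RT1-D, was at 11.9, 9.60 and 19.6 CPM in control, 19.9, 13.0 and 10.7 CPM in hypoplastic and 17.5, 19.96 and 29.4 CPM in treated lungs. RT1-Db1 was at 3.66, 3.87 and 7.69 CPM in control, 5.84, 4.33 and 3.96 CPM in hypoplastic and 6.11, 6.46 and 10.8 CPM in treated lungs. The 4 presenting chains had similar orders. All were highest in treated library 3, and control libraries 1 and 2 and hypoplastic libraries 2 and 3 held the 4 lowest values. Control library 3 held rank 8 of 9 for 3 chains and rank 6 for RT1-Da. RT1-Db1 has a near copy in RT1-Db2, and the split of reads between them is uncertain. Control and hypoplastic values overlapped for all 4, and treated and hypoplastic values overlapped for RT1-Ba and RT1-Da but not for RT1-Bb and RT1-Db1.

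**Figure D1:**
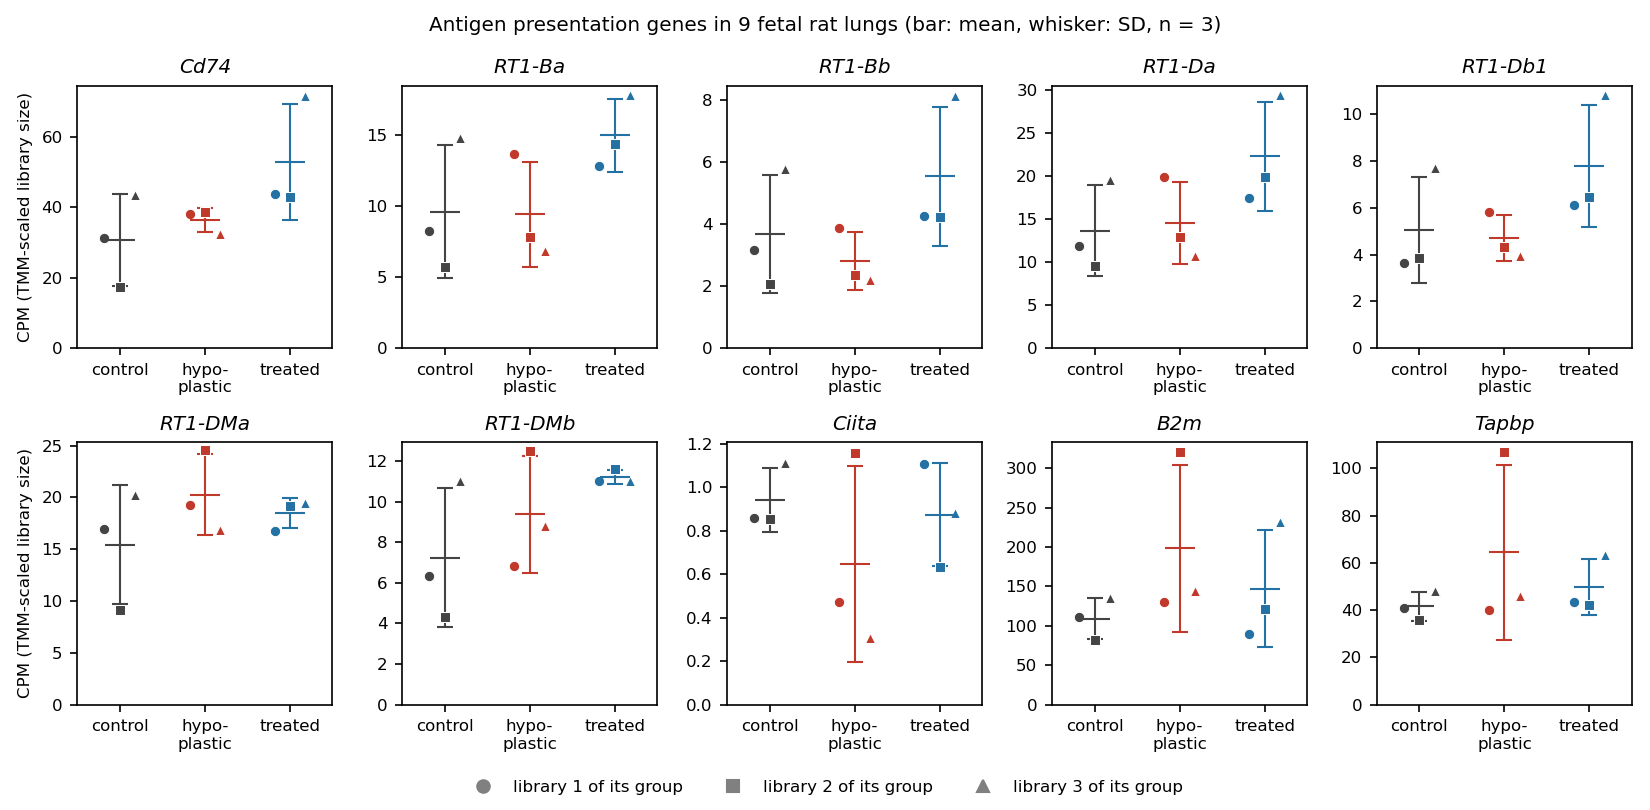
CPM (y axis, linear from 0, own scale per gene) of the 10 genes in control, hypoplastic and treated lungs, with 1 point per library, the mean as a horizontal bar and the SD as whiskers (n = 3). Treated library 3 is the highest point for Cd74 and the 4 presenting chains, while hypoplastic library 2 is the highest for B2m (320.8 CPM), Tapbp (107.1 CPM), both RT1-DM genes and Ciita.

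The peptide-exchange genes followed another order. RT1-DMa was at 17.0, 9.10 and 20.2 CPM in control, 19.3, 24.6 and 16.9 CPM in hypoplastic and 16.8, 19.2 and 19.5 CPM in treated lungs. RT1-DMb was at 6.36, 4.33 and 11.02 CPM in control, 6.82, 12.51 and 8.83 CPM in hypoplastic and 11.02, 11.6 and 11.03 CPM in treated lungs. Both were highest in hypoplastic library 2, where the presenting chains held rank 3 or 4 counted from the lowest of 9, and both were lowest in control library 2.

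Ciita, the coactivator gene, had 17 to 84 counts per library, so counting error is large for it. Its levels were 0.858, 0.856 and 1.11 CPM in control, 0.473, 1.16 and 0.308 CPM in hypoplastic and 1.11, 0.634 and 0.881 CPM in treated lungs. Hypoplastic lungs held both the highest and the lowest library, and all groups overlapped.

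B2m, the class I light chain gene, was at 111.6, 81.6 and 134.7 CPM in control lungs. It was at 130.7, 320.8 and 144.5 CPM in hypoplastic lungs and at 89.5, 120.8 and 231.8 CPM in treated lungs. Tapbp was at 41.1, 35.9 and 48.1 CPM in control, 40.1, 107.1 and 46.2 CPM in hypoplastic and 43.5, 42.3 and 63.4 CPM in treated lungs. Both genes were highest in hypoplastic library 2 and next in treated library 3, and the remaining 7 libraries lay between 81.6 and 144.5 CPM for B2m.

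The first comparison, of hypoplastic with control lungs, asks how antigen presentation genes differ in the hypoplasia model. edgeR called 0 of the 10 members at an adjusted p under 0.05, against 0.00771% of all genes tested (1 of 12966). At an unadjusted p under 0.05 it found 0 of 10, where 12.4% of all genes reached that p (6.67% higher, 5.69% lower). DESeq2 called 0 of 10, against 1.56% of genes, and limma voom called 0 of 10. The largest positive log2 fold changes were those of B2m at 0.86 (SE 0.413, edgeR adjusted p 0.429) and Tapbp at 0.63 (SE 0.339, edgeR adjusted p 0.476). Without hypoplastic library 2 these were 0.33 and 0.05. The approximate 95% interval ran from -0.06 to 1.79 for B2m and from -0.44 to 0.93 for Cd74, whose log2 fold change was 0.25 (SE 0.305, edgeR adjusted p 0.772). The 4 presenting chains lay between -0.39 (RT1-Bb) and 0.09 (RT1-Da). Without control library 3 all 4 were positive (0.10 to 0.44), and without control library 2 the median of the members was -0.07. RT1-DMa was at 0.39, RT1-DMb at 0.37 and Ciita at -0.54. With 1 library left out these ran from 0.12 (without control 2) to 0.63 (without control 3), from 0.10 (without hypoplastic 2) to 0.81 (without control 3) and from -1.26 (without hypoplastic 2) to -0.23 (without hypoplastic 3). In all, 6 of 10 members had a positive value, with a median of 0.17, where 51.9% of all genes were positive. For 0 of 10 the libraries of the groups did not overlap, against 7.68% of all genes higher and 9.05% lower without overlap.

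The second comparison, of treated with untreated hypoplastic lungs, asks how the lungs differ after vesicle treatment. edgeR called 0 of 10 members and 0 of 12966 genes (0%). At an unadjusted p under 0.05 it found 1 of 10, RT1-Bb (p 0.0434 by edgeR, adjusted p 0.895), where 5.56% of all genes were under it (2% higher, 3.56% lower). DESeq2 called 0 of 10, against 0.132% of genes, and limma voom called 0 of 10. All 4 presenting chains were higher in treated lungs, by log2 fold changes of 0.66 for RT1-Ba, 0.97 (SE 0.415) for RT1-Bb, 0.61 for RT1-Da and 0.72 (SE 0.336) for RT1-Db1. Cd74 was higher by 0.54 (SE 0.305, edgeR adjusted p 0.915). None of these passed the test, and the approximate 95% intervals ran from 0.04 to 1.90 for RT1-Bb and from -0.15 to 1.22 for Cd74. Without treated library 3 the log2 fold changes of Cd74 and RT1-Bb were 0.26 and 0.58. Without overlap of the libraries, 3 of 10 members were higher (Cd74, RT1-Bb and RT1-Db1), against 5.07% of all genes, and 0 of 10 were lower, against 4.74%. Of the 10, 7 had a positive value, with a median of 0.48, where 48.1% of all genes were positive. Cd74, RT1-Bb and RT1-Db1 vary together from lung to lung, so their count does not stand for 3 separate observations. B2m (-0.43, SE 0.411), Tapbp (-0.38, SE 0.338) and RT1-DMa (-0.13, SE 0.260) were lower, each with an edgeR adjusted p of 0.940 or more. Without hypoplastic library 2 all 3 turned positive, at 0.10, 0.20 and 0.03.

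**Figure D2:**
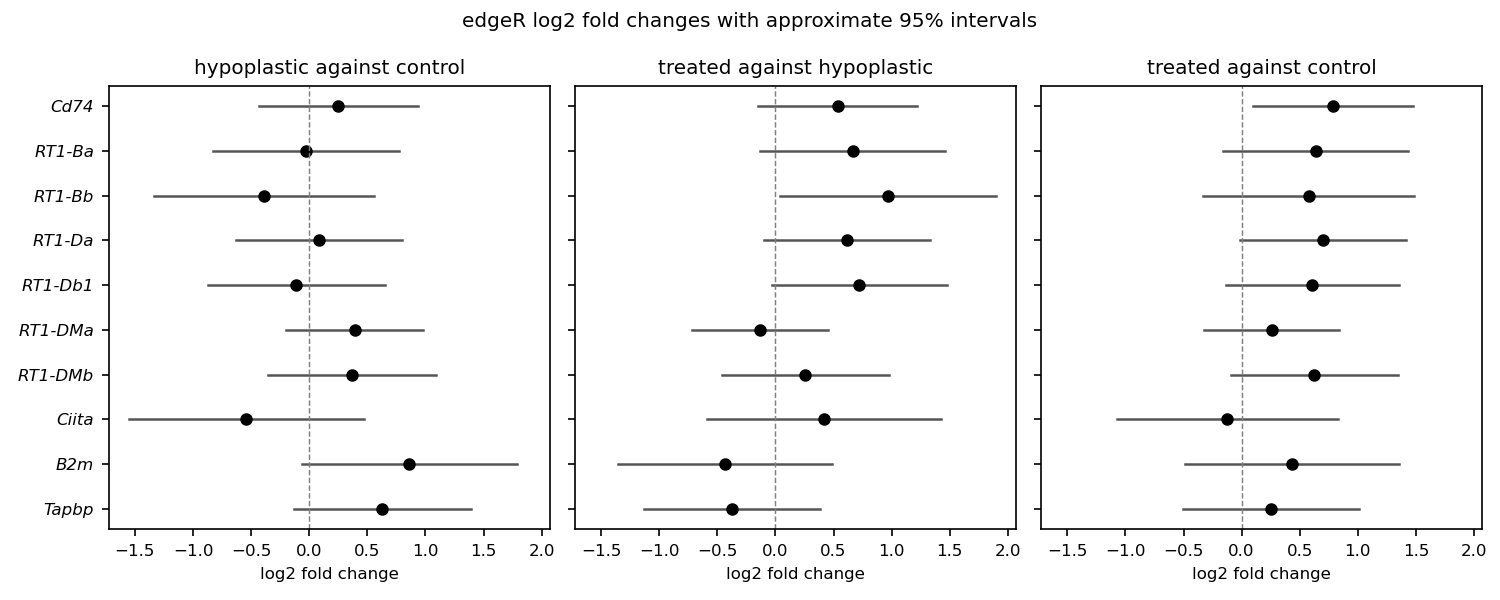
Log2 fold change (x axis) of each gene in the 3 comparisons by edgeR, with points for the estimates and lines for approximate 95% intervals; all 9 libraries entered 1 fit. All intervals include 0 except those of RT1-Bb in treated against hypoplastic and Cd74 in treated against control lungs, and no adjusted p was under 0.05.

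The third comparison set treated beside control lungs. It shares its treated lungs with the second and its control lungs with the first. edgeR called 0 of 10 members and 0 of 12966 genes (0%). DESeq2 called 0 of 10, against 0.108% of genes, and limma voom called 0 of 10. At an unadjusted p under 0.05 edgeR found 1 of 10, Cd74 (p 0.0290, adjusted p 0.998), where 4.17% of all genes were under it (1.67% higher, 2.5% lower). Cd74 had a log2 fold change of 0.79 (SE 0.306) with an approximate 95% interval from 0.10 to 1.47, and library values that overlapped. All 7 class II genes had positive values, from 0.26 (RT1-DMa) to 0.79, and Ciita had -0.12 (SE 0.424). B2m was at 0.43 and Tapbp at 0.25, so 9 of 10 members were positive, where 50.6% of all genes were. Library values overlapped for all 10 members, where 4.37% of all genes were higher and 5.02% lower without overlap. Without control library 3, in which the presenting chains were highest among controls, the log2 fold change of Cd74 was 1.12 and the median of the members was 1.05 in place of 0.59. Without treated library 3 they were 0.50 and 0.26, and without control library 2 they were 0.50 and 0.33. In both of these fits 0 of 10 members had an unadjusted p under 0.05. Without control library 3 it was 6 of 10, where 4.85% of all genes were under it, so this count depended on single libraries.

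How the members vary together was described by Pearson's r of log2 CPM over the 9 libraries, with no test, since all points share the same libraries, depth and RNA. Among the 6 pairs of presenting chains r ran from 0.92 to 0.98. Cd74, which lies on chromosome 18 and outside the RT1 complex of chromosome 20, had r from 0.83 to 0.88 with them. Without the 2 libraries farthest from the median of the class II profile (control 2 and treated 3) these ranges were 0.86 to 0.98 and 0.71 to 0.90. After each group's mean was removed they were 0.87 to 0.97 and 0.78 to 0.91, so the chains also varied together among lungs of 1 group. The RT1-DM genes had r from 0.39 to 0.57 with the presenting chains, and from -0.08 to 0.44 without the 2 libraries. Cd74 had r of 0.76 and 0.80 with the RT1-DM genes (0.67 and 0.85 within groups), so over the 9 libraries it lay near both sets. Without the 2 libraries its r with the RT1-DM genes was 0.32 and 0.71, so this nearness leaned on them. B2m and Tapbp had an r of 0.93 with each other and of 0.03 to 0.29 with the presenting chains. Without the 2 libraries the latter turned to -0.55 to -0.26. Ciita had an r from 0.09 to 0.30 with the 7 class II genes, at counts too low to read this as an absence of relation.

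**Figure D3:**
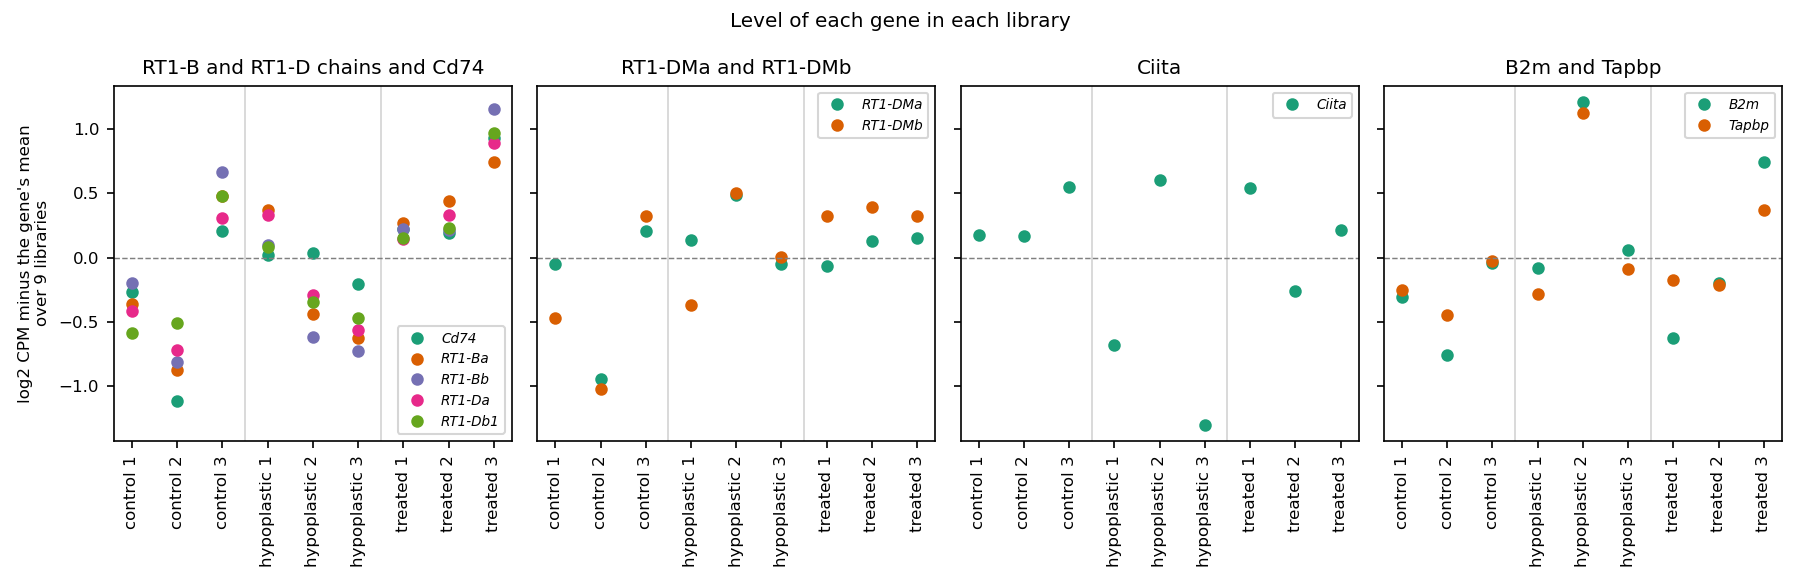
Log2 CPM of each gene minus its own mean over the 9 libraries (y axis), for the libraries of the 3 groups (x axis), 1 point per gene and library. Cd74 and the presenting chains are highest in treated library 3 and at rank 1 or 2 from the lowest in control library 2. RT1-DMa, RT1-DMb, B2m and Tapbp are at their highest in hypoplastic library 2, in which RT1-Ba (7.82 CPM) and RT1-Bb (2.37 CPM) are low. Cd74 is at rank 5 of 9 in that library.

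The difference between the RT1-DM genes and the presenting chains is visible as ratios of CPM within a library. Summed RT1-DMa and RT1-DMb over the summed presenting chains was 0.866, 0.631 and 0.653 in control lungs. It was 0.603, 1.35 and 1.08 in hypoplastic lungs and 0.683, 0.683 and 0.461 in treated lungs. Hypoplastic libraries 2 and 3 stood above the other 7, and hypoplastic library 1 (0.603) lay below all 3 controls. The ratio of RT1-Da to RT1-Db1, alpha and beta chains of 1 molecule, varied less, 1.38-fold between its extremes, and that of RT1-Ba to RT1-Bb 1.61-fold.

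Markers of the cells that could carry class II were set beside these values. In bulk lung, fewer cells of a type and less RNA per cell cannot be told apart. Ptprc, the pan-leukocyte gene CD45, was at 10.5, 3.62 and 11.8 CPM in control, 8.51, 24.1 and 15.6 CPM in hypoplastic and 10.9, 8.57 and 20.3 CPM in treated lungs. Summed over the 4 leukocyte genes, levels were 23.7 to 72.4 CPM in control, 55.6 to 127.2 CPM in hypoplastic and 65.3 to 92.4 CPM in treated lungs. The 11 macrophage genes summed to 252.0 to 454.5, 300.4 to 667.2 and 386.5 to 572.1 CPM in the same groups. Lyz2 alone made up 49.7% to 85.8% of these sums. The other 10 genes summed to 35.7 to 142.3, 102.5 to 335.7 and 87.0 to 280.4 CPM. Both lists were highest in hypoplastic library 2 and lowest in control library 2. All 10 macrophage genes tested had a positive log2 fold change in hypoplastic against control lungs, with a median of 0.94, and none was called by edgeR. DESeq2 called 1 of the 10, against 1.56% of all genes. This was Adgre1, which encodes the macrophage antigen F4/80 (log2 fold change 2.02 by edgeR, DESeq2 adjusted p 0.0113). Its libraries did not overlap, where 7.68% of all genes were higher without overlap. The macrophage median without hypoplastic library 2 was 0.25, with 8 of 10 positive. The part of these cells in the results above was not tested.

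The presenting chains did not keep a fixed level per leukocyte transcript. The summed 4 chains over Ptprc were 2.57, 5.88 and 4.07 in control, 5.10, 1.14 and 1.52 in hypoplastic and 3.73, 5.25 and 3.27 in treated lungs. The highest ratio was 5.15 times the lowest. Hypoplastic libraries 2 and 3 had the lowest ratios and high Ptprc, and control library 2 had the highest ratio and the lowest Ptprc. The same chains over the summed macrophage genes were lowest, at 0.0412 and 0.0549, in hypoplastic libraries 2 and 3.

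Other cell types that can bear or meet class II had marker lists in which some genes were near 0 and others were not. Of the dendritic cell list, 7 of 9 genes were in the table. Cd209a was at 0 in all libraries, Xcr1, Clec9a and Batf3 were at 0.327 CPM or less. Flt3 was at 0.0362 to 0.849 CPM and Ccr7, a migration receptor gene, at 0.274 to 1.24 CPM. The summed list of 11.4 to 14.9 CPM came mainly from Zbtb46 (10.8 to 14.1 CPM), which endothelial cells also express. The 4 B cell genes in the table summed to 0.132 to 0.338 CPM, with Ms4a1, which encodes CD20, at 0 in 8 of 9 libraries. Cd3d, Cd3e and Cd3g, the T cell receptor subunits, were at 0.120 CPM or less and Cd8a was at 0.641 CPM or less. Of the same list, Lck was at 2.06 to 2.60 CPM and Cd4, which macrophages can also express, at 0.392 to 3.98 CPM, lowest in control library 2. Of the thymus list, Foxn1 was at 0 in all libraries and Rag2, Dntt and Ccl25 were at 0.190 CPM or less. Cd1d1 (14.2 to 27.8 CPM), Psmb11 (2.65 to 7.98 CPM), Prss16 (0.651 to 1.32 CPM) and Rag1 (0.874 to 2.86 CPM) were present. Rag1, a gene of antigen receptor rearrangement, was highest in treated library 3 and control library 3 and lowest in control library 2. It had an r of 0.69 with the class II profile described below. The other thymus genes present did not share this, with an r of -0.60 for Cd1d1, -0.51 for Prss16 and 0.05 for Psmb11. Alveolar type II markers summed to 2960 to 5690 CPM in control, 2110 to 2562 CPM in hypoplastic and 2640 to 3663 CPM in treated lungs. Their highest group was thus control, unlike that of the presenting chains. In treated against hypoplastic lungs, however, 7 of 7 of these markers were higher, as the presenting chains were, with a median log2 fold change of 0.48. Of the 7, edgeR found 2 at an unadjusted p under 0.05 (2% of all genes were higher at that p) and called 0. Libraries did not overlap for 3 of the 7, against 5.07% of all genes. Red cell genes summed to 10560 CPM in control library 2, the lowest library for 3 of the 4 presenting chains, and to 3161 to 6130 CPM in the other 8. Over all libraries the 4 red cell genes had an r with the class II profile from -0.78 (Alas2) to -0.72 (Hba-a2). These values were not computed without control library 2. Neutrophil genes summed to 7.16 to 14.1 CPM in control, 56.3 to 99.2 CPM in hypoplastic and 19.6 to 83.7 CPM in treated lungs. Of the 7 neutrophil genes tested in hypoplastic against control lungs, 7 were higher, with a median log2 fold change of 2.94. By edgeR 6 of these had an unadjusted p under 0.05, where 6.67% of all genes were higher at that p. edgeR called 0 and DESeq2 called 5, against 1.56% of all genes by DESeq2. Without hypoplastic library 2 all 7 had an unadjusted p under 0.05, where 8.99% of all genes were under it. The part of alveolar type II cells, red cells and neutrophils in the members' values was not tested.

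**Figure D4:**
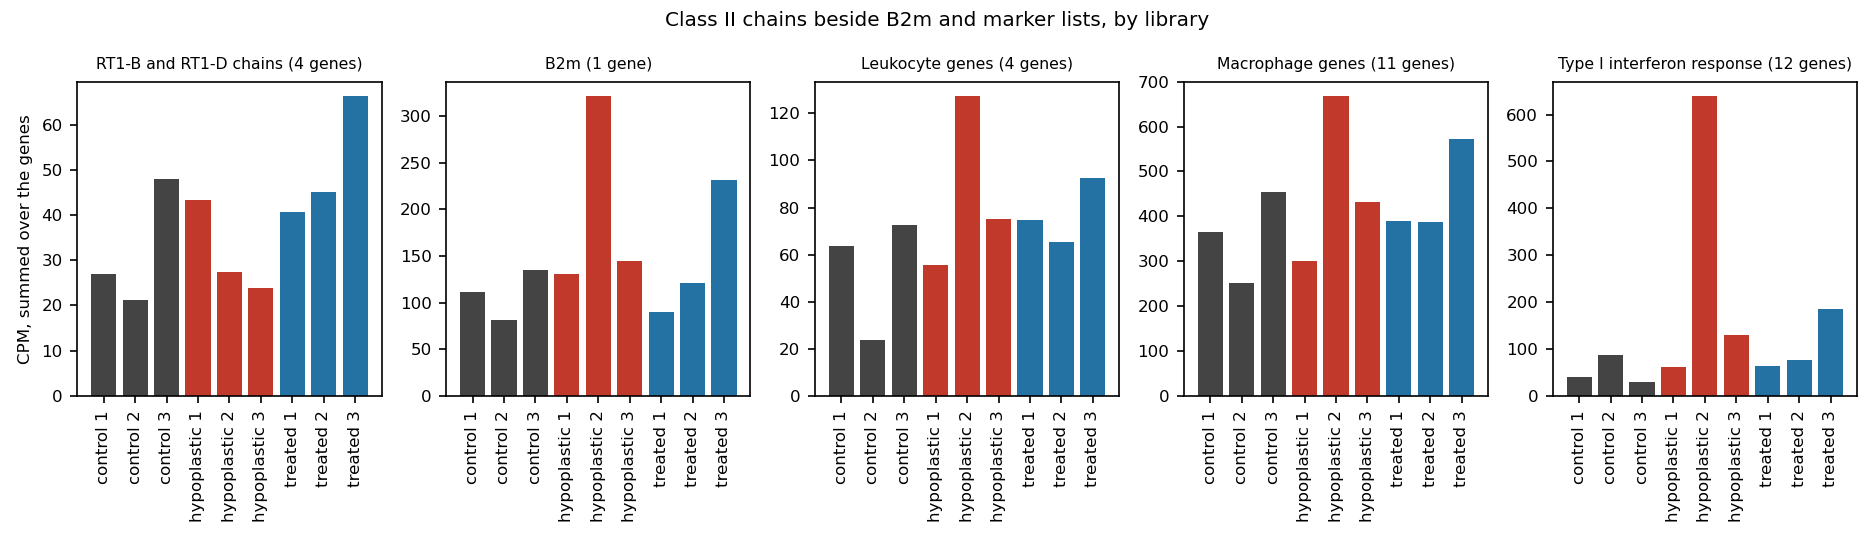
CPM summed over the genes named above each panel (y axis, linear from 0, own scale per panel) in each of the 9 libraries (x axis; grey control, red hypoplastic, blue treated). The presenting chains are highest in treated library 3 (66.2 CPM), while B2m, the leukocyte and macrophage lists and the type I interferon list are highest in hypoplastic library 2.

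The other genes of the class II pathway were a list of 16, of which 14 were tested. RT1-DOa and RT1-DOb, which encode the inhibitor of RT1-DM and are typical of B cells, were at 0.137 CPM or less and were not tested. edgeR called 0 of 14 in each comparison. In hypoplastic against control lungs 1 of 14 was higher and 1 lower at an unadjusted p under 0.05, near the shares of all genes (6.67% and 5.69%). Ctsh, a cathepsin that also processes surfactant proteins, was at 195.3, 535.5 and 312.9 CPM in control and 153.6, 161.9 and 175.4 CPM in hypoplastic lungs. Its log2 fold change was -1.09 (SE 0.293, edgeR adjusted p 0.317), without overlap, and DESeq2 called it (adjusted p 0.0225). Without control library 2 the value was -0.64. Ctsl, a lysosomal protease, was higher by 0.69 (SE 0.306, edgeR adjusted p 0.401), and by 0.43 without hypoplastic library 2. In treated against hypoplastic lungs Ctsl (-0.46) and Rfxank (0.20), a subunit of the RFX complex, had the smallest p, both with an edgeR adjusted p of 0.928 or more. In treated against control lungs these were Ctsh (-0.93, and -0.48 without control library 2) and the NF-Y subunit gene Nfya (0.18), with an edgeR adjusted p of 0.998. Medians of the list were -0.00, 0.00 and 0.11 in the 3 comparisons.

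The class I pathway list held 30 genes, of which 28 were tested, and edgeR called 0 in each comparison. In hypoplastic against control lungs 24 of 28 were higher, with a median log2 fold change of 0.54 beside 0.01 for the whole table. At an unadjusted p under 0.05, 8 of 28 were higher and 0 lower (6.67% of all genes were higher at that p). RT1-N3, a class Ib gene, was at 16.2, 13.6 and 22.4 CPM in control and 28.4, 33.0 and 25.2 CPM in hypoplastic lungs, without overlap. Its log2 fold change was 0.73 (SE 0.182, edgeR adjusted p 0.317), and DESeq2 called it (adjusted p 0.0275). Tap1, a subunit of the peptide transporter, was at 9.04, 4.94 and 13.2 CPM in control and 15.8, 75.0 and 14.4 CPM in hypoplastic lungs. The groups did not overlap, but hypoplastic library 2 was far above the others. The log2 fold change of Tap1 was 1.95 (SE 0.644, edgeR adjusted p 0.326). In treated against hypoplastic lungs 3 of 28 were higher, with a median of -0.22, and the smallest p were those of Tap1 (-1.33) and RT1-N3 (-0.35), each with an edgeR adjusted p of 0.901. Without hypoplastic library 2 these class I counts were different: 19 of 28 were higher than control, with a median of 0.20, and 17 of 28 were higher in treated than in hypoplastic lungs, with a median of 0.02. At an unadjusted p under 0.05 by edgeR, 2 of 28 were then higher than control and 1 lower. In that fit 8.99% of all genes were under it in either direction. The log2 fold change of Tap1 over control was then 0.73 and that of RT1-N3 was 0.62. In treated against control lungs RT1-T24-1 (0.61) and RT1-N3 (0.38) had an edgeR adjusted p of 0.998. Class I genes of the RT1 complex are near copies of each other, so counts of single genes such as RT1-N3 are uncertain.

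Genes upstream of the members were measured too. Ifng, which encodes interferon gamma, was at 0 in 6 of 9 libraries and at 0.0305 CPM or less in the others. Of the 15 genes of the interferon gamma axis 12 were tested, and all 12 were higher in hypoplastic than in control lungs. Their median log2 fold change was 0.39, with 0 called by edgeR. At an unadjusted p under 0.05 edgeR found 4 of the 12 higher, against 6.67% of all genes, and 0 of 12 without hypoplastic library 2. Irf1, an interferon-induced factor of class I promoters, was at 17.4, 7.62 and 19.4 CPM in control, 22.8, 43.5 and 20.4 CPM in hypoplastic and 13.4, 17.7 and 18.6 CPM in treated lungs. Hypoplastic lungs exceeded control by 0.96 (log2, SE 0.369, edgeR adjusted p 0.366). Treated lungs differed from hypoplastic by -0.80 (log2, SE 0.367, edgeR adjusted p 0.901). Neither comparison had overlapping libraries. Cxcl10, a chemokine gene, was at 98.9 CPM in hypoplastic library 2 and at 4.66 CPM or less in the other 8. Its log2 fold changes were 4.59 (edgeR adjusted p 0.323) and -3.83 (edgeR adjusted p 0.869) in the same comparisons. Without hypoplastic library 2, Cxcl10 was at 0.95 and -0.20 and Irf1 at 0.54 and -0.38. The list then had 8 of 12 genes positive in each comparison, with medians of 0.08 and 0.11. In treated against control lungs Socs1 (-0.28) and Ifngr1 (0.26) had the smallest p of the list.

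The type I interferon list summed to 638.7 CPM in hypoplastic library 2, 185.3 CPM in treated library 3 and 28.95 to 129.3 CPM in the other 7. These 2 libraries are also the highest for B2m and Tapbp. Its 12 genes were all higher in hypoplastic than in control lungs, with a median of 3.24 and 0 called. By edgeR 10 of the 12 had an unadjusted p under 0.05, where 6.67% of all genes were higher at that p. Without hypoplastic library 2 it was 0 of 12. Ifit3 (5.802, edgeR adjusted p 0.323) and Oasl (4.78, edgeR adjusted p 0.325) had the smallest p there. In treated against hypoplastic lungs all 12 were lower, with Ifit2 at -2.15 and Ifit3 at -3.33 (edgeR adjusted p 0.895 and 0.901). Without hypoplastic library 2 the median over control was 0.77, with Ifit3 at 1.57 and Oasl at 1.37. Without it the direction in treated against hypoplastic lungs turned, with 11 of 12 genes higher and a median of 0.86. Without treated library 3 the same comparison had 0 of 12 higher and a median of -3.54, with 10 of 12 lower at an unadjusted p under 0.05. Without control library 2 edgeR called 1 of the 12, Ifit1, in hypoplastic against control and in treated against control lungs. Ifit1 was the only gene of the whole table called in each of these fits, and is named here after its values were seen. It was at 0.567, 24.5 and 0.0542 CPM in control libraries 1 to 3, at 25.3 to 44.0 CPM in hypoplastic and at 26.9 to 30.9 CPM in treated lungs. The omitted library was thus the control nearest to the other groups, and with all libraries Ifit1 was not called. In treated against control lungs Isg15 was at 2.68 and Mx1 at 2.06, with an edgeR adjusted p of 0.998, and without treated library 3 they were at 0.26 and -0.50. The part of interferon in the class I values was not tested.

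Of 6 costimulation genes, which give the second signal to T cells or restrain it, 4 were tested and 0 were called by edgeR in any comparison. Cd274, which encodes the inhibitory ligand PD-L1, was at 0.674, 0.268 and 0.610 CPM in control and 0.976, 5.37 and 1.38 CPM in hypoplastic lungs. Its log2 fold change was 2.28 (SE 0.680, edgeR adjusted p 0.317), without overlap, and DESeq2 called it (adjusted p 0.0368). In treated lungs it was at 0.540, 0.921 and 1.204 CPM, which differed by -1.54 on the log2 scale (SE 0.625, edgeR adjusted p 0.895) from hypoplastic and by 0.74 from control lungs. The differences of Cd274 without hypoplastic library 2 were 1.14 (hypoplastic against control) and -0.40 (treated against hypoplastic). Cd40, a receptor for T cell help, was higher by 0.48 (SE 0.221, edgeR adjusted p 0.413) in hypoplastic than in control lungs, without overlap. Treated lungs differed in Cd40 by -0.18 from hypoplastic and by 0.30 from control lungs.

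Genes with the profile most like that of the class II set were ranked by Pearson's r of log2 CPM with the mean standardized profile of the 7 class II genes, over 9 libraries and 11343 candidate genes. The first 8 were Tbxas1 (0.91), Mettl18 (0.90), Nrn1 (0.90), Ing1 (0.90), Rtp3 (0.89), Tmem26 (0.89), Rgs2 (0.88) and Rnaseh2a (0.88). Without control library 2 and treated library 3 these values were 0.55 to 0.84. Tbxas1, the thromboxane synthase gene, had a mean of 1.94 CPM. Ptprc ranked 857 (r 0.57) and Csf1r, the macrophage growth factor receptor gene, ranked 577 (r 0.62). With so many candidates and 9 libraries, values of this size describe these lungs only.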

How the data were processed

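Transcript levels of 9 fetal rat lungs were taken from 1 table of estimated counts that the authors deposited, with 17465 NCBI Gene IDs and 9 library columns, not normalized between libraries. Genome build rn7 and DESeq2 are named, per the submitters' processing notes, without their role. The aligner and the counting of reads that match several genes are not stated in the sources used here, and only 19.5% of nonzero values were whole. The RT1 genes are polymorphic between rats, and the haplotype of each lung is not given, so reads lost to allele differences were not tested. The groups came from the sample titles. Replicates are numbered lungs, and nothing states separate litters, so p-values measure the spread between these samples.

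Counts were rounded and tested with edgeR 4.0.16 in R 4.3.3 (glmQLFit with legacy=FALSE, glmQLFTest, TMM, filterByExpr), with all 9 libraries in 1 fit and 6 residual degrees of freedom. Benjamini-Hochberg adjustment ran over all 12966 genes tested in each of 3 comparisons, with calls at an adjusted p under 0.05. Standard errors are the absolute log2 fold change over the square root of F, and 95% intervals from them are approximate. DESeq2 1.42.0 and limma 3.58.1 (voom) were among 18 alternatives, 9 of which left out 1 library each. The fit was also run on simulated counts, drawn independently with 1 dispersion for all genes. That setting has no outlying libraries and no genes that vary together, so it does not check the fit for these. For correlations, log2 CPM used a prior count of 2. Symbols came from a RefSeq gene table of GRCr8 (17314 of the IDs, 99.1%, matched), and promoters from RefSeq on GRCr8. Promoter coordinates are those of GRCr8, and no coordinates are given for the counts, which belong to another build.

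The members and lists were chosen with earlier results of these data known. In each pathway list and comparison the called genes, or else the 2 of smallest p with a mean of at least 1 CPM, are named, and for likeness the 8 genes of highest r. The macrophage sum without Lyz2, lists refitted without hypoplastic 2, treated 3 or control 2, and correlations without 2 libraries, were added after seeing the data, as was the motif spacing. Cell marker genes were named as the text needed, after their values were seen. Pairs of same-numbered libraries had correlations of deviations from -0.282 to 0.227, above 0.1 in 3 of 9, so numbers were not taken to pair the lungs. RT1-N1, Nlrc5, Icosl, Itgax, Siglech, Cd79a and Ighm were not analysed here.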

Additional observations from a re-analysis of the deposited data

How the results depend on the processing

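No member was called under the 15 alternatives that apply to each comparison. The alternatives were other size factors, filters and tests, the 6 compared libraries alone, a sex covariate, a replicate block, removal of ribosomal and 7SL rows, and omission of each library. Under them 0 to 2, 0 to 4 and 0 to 6 of the 10 members had an unadjusted p under 0.05 in the 3 comparisons. The shares of all genes were 6.49% to 13.6%, 2.85% to 7.39% and 2.84% to 4.85%. With 1 of the 6 compared libraries left out, the median log2 fold change of the members ran from -0.07416 to 0.5121 in hypoplastic against control, 0.3182 to 0.6406 in treated against hypoplastic and 0.2594 to 1.05 in treated against control lungs. The highest value in the first and the third came without control library 3. With the replicate block these medians were 0.2517, 0.4624 and 0.6322, no member was called, and the log2 fold change of RT1-Ba in hypoplastic against control was 0.04102. The sex covariate gave medians of 0.1192, 0.5009 and 0.5588. Over all genes, DESeq2 called 202, 17 and 14 in the 3 comparisons where edgeR called 1, 0 and 0.

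Signs of some members turned when 1 library was left out, including B2m and Tapbp. In hypoplastic against control lungs the ranges were -0.03534 to 0.5845 for Cd74, -0.3943 to 0.4318 for RT1-Ba, -0.6989 to 0.1027 for RT1-Bb, -0.2092 to 0.4397 for RT1-Da and -0.2975 to 0.3264 for RT1-Db1. In treated against hypoplastic lungs they were -0.2456 to 0.02981 for RT1-DMa, -0.9164 to 0.09946 for B2m and -0.6246 to 0.2042 for Tapbp. In treated against control lungs they were -0.0099 to 0.5009 for RT1-DMa, -0.3331 to 0.0731 for Ciita and -0.05521 to 0.69 for B2m. Of the list genes, Ifit2 ran from -2.953 to 0.2132 and Ifit3 from -5.213 to 0.8959 in treated against hypoplastic lungs, positive only without hypoplastic library 2. Ifngr1 ran from -0.06175 to 0.4517 and Mx1 from -0.5009 to 2.588 in treated against control lungs, negative only without treated library 3. Ctsh, RT1-N3 and Cd274 in hypoplastic against control lungs passed the threshold with DESeq2 alone among the alternatives run. The cause was not tested. Depth limits Ciita most, at 17 to 84 counts per library.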
